A study of Drosophila melanogaster with 9 samples.

Results

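The genes described here were the long noncoding RNA (lncRNA) genes that were expressed in stage 5 embryos of Drosophila melanogaster. They were the rows of the expression table whose FlyBase identifier has a symbol starting with lncRNA:, with roX1, roX2 and CR43857 left out, and whose RPKM (reads scaled to gene length and to library size) was at least 3 in at least 3 of 9 libraries. Of 381 such rows, 23 met the rule (6.04%), against 6502 of all 15682 genes in the table (41.5%). Another 130 of the 381 were at 0 in every library. The members were thus chosen by their RPKM levels in these libraries, so that they are well expressed is no result.

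The study set embryos described as mutant for Ataxin-7 or for non-stop against wild type. These proteins belong to the deubiquitinase module of the SAGA coactivator, in which Non-stop is the enzyme that removes ubiquitin from histone H2B and Ataxin-7 anchors the module to the complex. Polyadenylated RNA of hand-sorted stage 5 embryos, collected for 2 h and aged 1 h at 25 °C, was sequenced with a stranded kit in biological triplicate from OregonR (wild type), from ataxin-7 and from non-stop, and the labels name no allele and no driver. Replicates 2 and 3 titled ataxin-7 carry other genotype tags, and grouping went by title. The non-stop libraries came from another experiment than those of OregonR and ataxin-7, and no wild type of that experiment is among the libraries used here. Genotype and experiment cannot be told apart wherever non-stop was compared. In whole embryos, fewer cells of a type and less RNA per cell cannot be told apart either.

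LncRNAs are transcripts without a long open reading frame. Some act on chromatin in cis or in trans, some are precursors of microRNAs, and others are made beside or within a coding gene and have no known function. At stage 5 the embryo forms its first cell layer while maternal RNA is cleared and zygotic transcription takes over, so RNA of either origin can be present.

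The libraries labelled OregonR and ataxin-7 held 75.0 to 90.1 M reads (megareads) in genes and the non-stop libraries 37.0 to 39.3 M, so that 3 reads of a gene of 1 kb corresponded to between 0.0341 and 0.0767 RPKM. The not gene itself stood at 52.3 to 56.7 RPKM in OregonR and at 0.608 to 1.11 in non-stop, whereas Atxn7 RNA read 21.9 to 28.0 RPKM in libraries labelled ataxin-7, above the 17.98 to 19.8 of OregonR. Of 20 listed early zygotic genes, 18 were in the table, and their mean log2(RPKM + 1) lay between 6.88 and 7.04 in OregonR, at 4.18, 5.71 and 6.24 in ataxin-7 replicates 1, 2 and 3, and between 3.51 and 3.83 in non-stop. For 13 of 15 listed maternal genes the ranges were 2.94 to 3.68, 3.91 to 6.30 (the highest in replicate 1) and 5.51 to 5.70. The 4 of 5 listed germ plasm genes in the table had mean levels of 3.64 to 3.94, 3.88 to 5.28 and 4.39 to 4.60, and all 13 ovarian follicle and eggshell genes were under 1 RPKM in every library, 4 of them at 0 throughout. Ataxin-7 replicate 1 stood apart: 29.8% of 7049 genes differed more than 2-fold from the mean of the other ataxin-7 libraries, as did 6 of the 23 lncRNA genes. CR43685, CR42861 and CR32027 were higher there, and CR43887, marge and CR43264 were lower. How far stage or RNA composition takes part in the differences below was not tested.

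The levels of the 23 genes ran from 0.0609 RPKM (CR43626 in OregonR replicate 2) to 982 (CR43887 in OregonR replicate 1), and the plot of RPKM by library shows all of them. RPKM was computed on the whole gene span, with any introns, for 19 of them. For CR30055, CR43961, CR43651 and CR43626 another length was used, so levels are compared per kilobase of the length used. CR43887 (FBgn0264479, BDGP6 3L:11693135-11693661, plus strand, 1 exon, no overlapping coding gene) was the highest in all 3 OregonR libraries, at 982, 970 and 718 RPKM. CR42491 (FBgn0259993, X:762615-763810, minus strand), which lies within the ribosomal protein gene RpL22, was the highest in all 6 mutant libraries, at 399, 484 and 505 RPKM in ataxin-7 and 268, 297 and 299 in non-stop. Together these genes took 68.5 to 73.6% of the summed RPKM of the 23 in OregonR, 44.3 to 57.9% in ataxin-7 and 39.4 to 43.9% in non-stop.

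**Figure D1:**
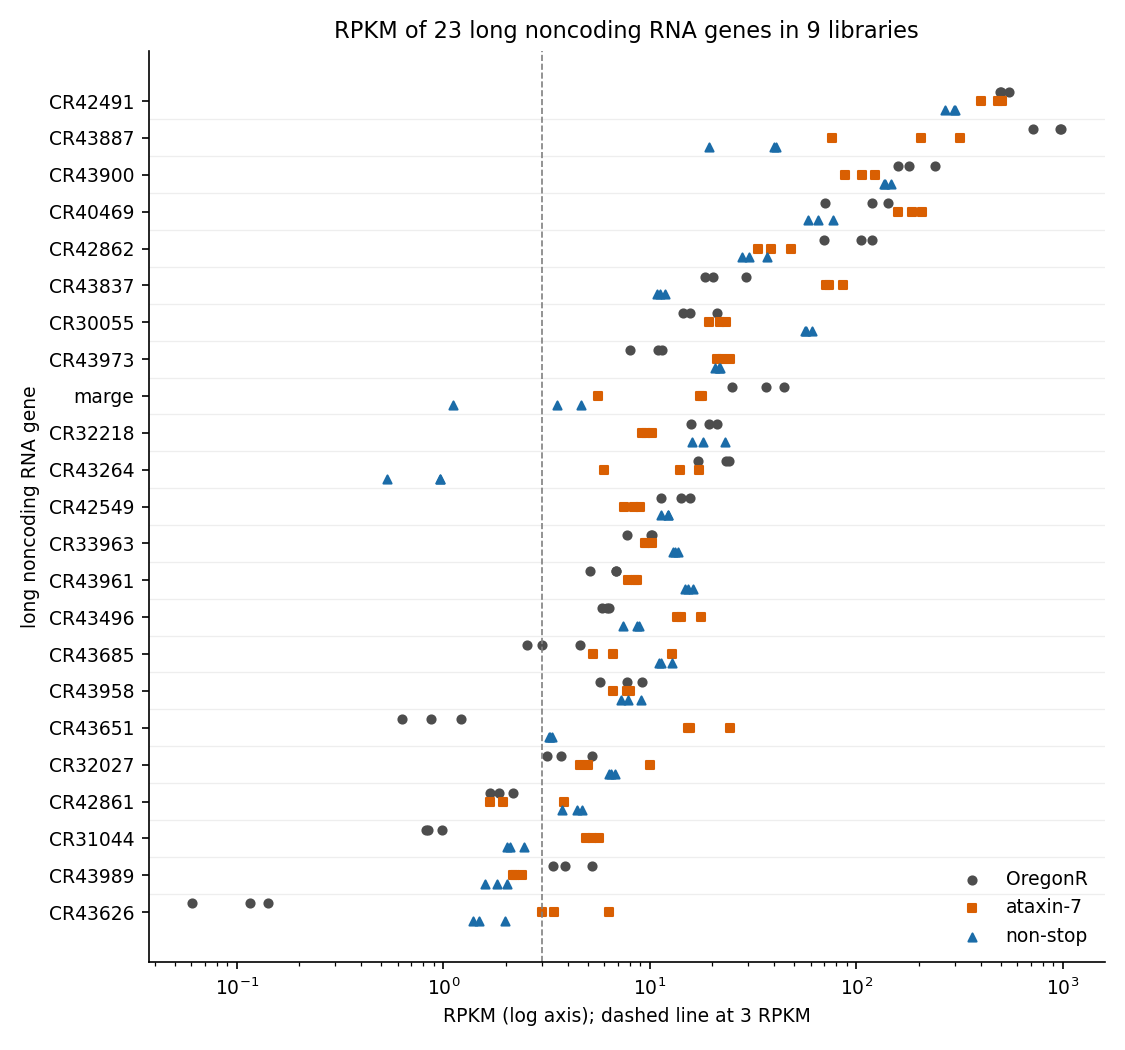
RPKM (log axis) of the 23 long noncoding RNA genes, ordered by mean, in the 3 OregonR, 3 ataxin-7 and 3 non-stop libraries, each point being 1 library and the dashed line marking 3 RPKM. CR43887 ran from 982 down to 19.3 RPKM, while CR43958 stayed between 5.74 and 9.16 RPKM in all 9 libraries.

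Below these came CR43900 with group means of 193 ± 42.1, 106 ± 17.4 and 140 ± 6.34 RPKM in OregonR, ataxin-7 and non-stop (SD, n = 3 here and below), CR40469 with 111 ± 36.9, 185 ± 24.2 and 66.6 ± 9.43, and CR42862 with 97.9 ± 25.4, 40.2 ± 7.62 and 31.6 ± 4.69. In OregonR CR40469 and CR42862 did not separate beyond their spread, and all libraries of CR43900 lay above theirs. The 23 genes together held 0.222 ± 0.0281% of reads in OregonR, 0.154 ± 0.0173% in ataxin-7 and 0.113 ± 0.00434% in non-stop, with no overlap between groups. Few genes set this share. In OregonR replicate 1, CR42862, CR42491 and CR43887 held 63700, 51411 and 40432 of the 194776 reads. The share describes these genes, which were chosen by level, and not lncRNA genes as a class.

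By position, 8 of the 23 genes were on the X chromosome and 8 on 3L, while 3 were on 2R, 3 on 3R, 1 on the fourth chromosome and none on 2L. The X held 34.8% of them against 14.7% of all genes in the table. Spans ran from 214 bp (CR40469) to 6859 bp (CR42862) with a median of 1176 bp, and 12 genes had a single exon. Wholly inside a coding gene lay 6 on its strand and 6 on the opposite strand, while 2 overlapped one in part and 9 overlapped none. Among the 9, CR43651, CR31044 and CR43626 contain microRNA hairpins.

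A level of 3 RPKM was reached in all 9 libraries by 15 genes. The other 8 passed through some groups: CR31044 and CR43626 through the ataxin-7 libraries only, CR43989 through OregonR only, CR43651 through both mutants, CR43264 through OregonR and ataxin-7, and CR42861 through non-stop and ataxin-7 replicate 1, while marge and CR43685 each fell short in 1 library. Where a gene met this rule, or the filter of a fit (1 RPKM in 3 samples), only through the group in which it was high, that difference is given without a test. This holds for CR31044 and CR43626 in all comparisons, for CR43989 and CR43651 against OregonR, and for CR43264 and CR42861 in both comparisons with non-stop. Just inside the threshold, the third-highest value was 3.005 for CR43626, 3.41 for CR43989 and 3.83 for CR42861. Just outside were Hsromega and CR43617 at 2.48 each and CR43785 at 2.45.

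The first comparison asked what differs in the libraries labelled ataxin-7 relative to OregonR. Levels of CR43837 and of the microRNA hosts CR43651, CR31044 and CR43626 were several-fold higher, CR43496 and CR43973 were higher by more than 2-fold, and CR43887, CR42862, CR43900, CR32218, CR42549 and CR43989 were lower. By limma on log2(RPKM + 1) with Benjamini-Hochberg (BH) adjustment over all 7049 genes tested, 12 of the 23 passed an adjusted p of 0.05, 6 higher and 6 lower. Over all genes 32.4% passed (16.0% higher and 16.4% lower). Counts and medians over the 23 hold genes whose difference the choice of members helped to fix, and nothing is read from them. Among the 15 genes at 3 RPKM or more in every library, 8 passed, 3 higher and 5 lower. The median log2 fold change was 0.21 for the 23, 0.06 for those 15 and 0.05 over all genes. The median size of the change was 0.85, 0.79 and 0.42.

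CR43837 (FBgn0264385, X:6995882-6997799, minus strand) read 20.2, 18.6 and 29.1 RPKM in OregonR and 85.6, 73.3 and 71.2 in ataxin-7. The groups were far apart, and the lowest ataxin-7 library was at more than 2 times the highest OregonR library. The gene rose 3.39-fold (log2 fold change 1.74, SE 0.18, limma adjusted p = 0.00298). CR43496, on the strand opposite to sov (a heterochromatin factor), rose from 5.85, 6.22 and 6.31 RPKM to 17.7, 13.5 and 14.1, with a log2 fold change of 1.17 (SE 0.17, limma adjusted p = 0.00744). CR43973, opposite to the CTP synthase gene Ctps, rose from 7.97, 11.5 and 11.0 to 24.5, 21.1 and 22.5 RPKM (log2 fold change 1.10, SE 0.17, limma adjusted p = 0.0093). In neither gene did the groups overlap.

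Of the genes that fell, CR43887 read 75.9, 205 and 316 RPKM in ataxin-7 replicates 1, 2 and 3, against at least 718 in OregonR. Its ataxin-7 libraries followed the order of the early zygotic list given above, and the mean was 4.47-fold lower (log2 fold change -2.36, SE 0.49, limma adjusted p = 0.0173). Without ataxin-7 replicate 1 the log2 fold change was -1.79 and the limma adjusted p 0.000639. In that fit 51.4% of all genes passed. CR43887 passed in 3 of the 6 fits that left out 1 library. Its call was lost without ataxin-7 replicate 2, OregonR replicate 1 or OregonR replicate 2, and with a replicate block. The highest limma adjusted p was 0.0794, without OregonR replicate 2. CR42862 (3L:224106-230964, plus strand) fell from 119, 105 and 69.6 to 33.4, 48.4 and 38.7 RPKM, with no overlap and a log2 fold change of -1.24 (SE 0.23, limma adjusted p = 0.0130). The smaller falls, of 0.85 (CR43900), 0.88 (CR32218) and 0.66 (CR42549) on the log2 scale, had limma adjusted p-values of 0.0186, 0.0124 and 0.0326, again without overlap. CR43989, which was let in by OregonR, read 3.41, 3.88 and 5.26 RPKM there and 2.18, 2.40 and 2.22 in ataxin-7.

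The named gene marge (FBgn0263380, 3L:14976626-14977631, minus strand), whose nearest coding gene is the Bearded-family gene Ocho at 586 bp, read 44.4, 36.5 and 25.1 RPKM in OregonR and 5.59, 17.5 and 17.9 in ataxin-7. The groups did not overlap, but with all libraries the gene missed the threshold (log2 fold change -1.42, SE 0.45, limma adjusted p = 0.0509), and without ataxin-7 replicate 1 it passed at -0.92 (limma adjusted p = 0.0079). The other 10 genes that did not pass had log2 fold changes between -0.85 (CR43264) and 1.02 (CR43685). Leaving out 1 library changed the count strongly. Without OregonR replicate 1, OregonR replicate 2 or ataxin-7 replicate 2 the genes that passed numbered 6, 5 and 5. Of all genes, 4.53%, 2.93% and 8.53% passed in those fits. Of the 8 genes that passed outside the differences left without a test, CR43837 alone passed in every alternative. With quantile normalization 9 of the 23 passed as higher and 4 as lower, and 38.9% of all genes passed.

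The second comparison set non-stop against OregonR, which it shares with the first. CR43887, CR43264 and marge were lower in non-stop by 11.4-fold or more, CR42862, CR43837, CR43989 and CR42491 were lower by less, and CR30055, CR43685, CR43961, CR43973, CR42861 and the microRNA hosts were higher. Of the 23 genes, 20 passed by limma, 11 higher and 9 lower, where 82.7% of all 7280 genes tested passed (47.7% higher and 35.1% lower). The share is thus close to that of all genes. Of the 15 genes at 3 RPKM or more throughout, 12 passed, 6 in each direction. The median log2 fold change was 0.10 for the 23, 0.02 for those 15 and 0.17 for all genes.

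CR43887 stood at 19.3, 40.0 and 40.8 RPKM in non-stop, 26.7-fold below its OregonR mean (890 ± 149 against 33.3 ± 12.2 RPKM, log2 fold change -4.76, SE 0.29, limma adjusted p = 9.22e-06). CR43264 (X:5831898-5832215, minus strand) had 599, 643 and 406 reads in OregonR and 7, 12 and 12 in non-stop, or 24.1, 23.4 and 17.1 RPKM against 0.536, 0.965 and 0.963. Its mean was 26.2-fold lower, a description since its OregonR level carried it through the filter, and the 3 non-stop libraries lay above the value of 3 reads but far below every other library. For marge the non-stop libraries gave 1.11, 3.56 and 4.64 RPKM, 11.4-fold below OregonR (log2 fold change -3.22, SE 0.38, limma adjusted p = 0.000166). In all 3 genes non-stop replicate 1 was the lowest library, as it was for the early zygotic list.

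CR43837 went the other way than in ataxin-7: its non-stop libraries read 11.2, 11.9 and 10.8 RPKM, below all OregonR libraries (log2 fold change -0.92, SE 0.16, limma adjusted p = 0.00128). CR42491 fell from 550, 496 and 504 RPKM to 268, 297 and 299 (log2 fold change -0.84, SE 0.06, limma adjusted p = 1.88e-05), and with quantile normalization its log2 fold change was -0.03. CR42862 read 27.9, 30.0 and 36.9 RPKM in non-stop, a log2 fold change of -1.57 (SE 0.20, limma adjusted p = 0.000253). CR40469 passed at -0.67 (SE 0.25, limma adjusted p = 0.0396) although its groups overlapped, and CR43900 at -0.44 (SE 0.14, limma adjusted p = 0.0232). Both calls were lost with quantile normalization and without the filter on low levels, among other alternatives. CR40469 passed in 8 of 15 alternatives, and in 2 of the 6 fits that left out 1 library. CR43900 passed in 11 of 15, and in 4 of those 6 fits. CR43989 read 1.58, 1.83 and 2.04 RPKM in non-stop.

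**Figure D2:**
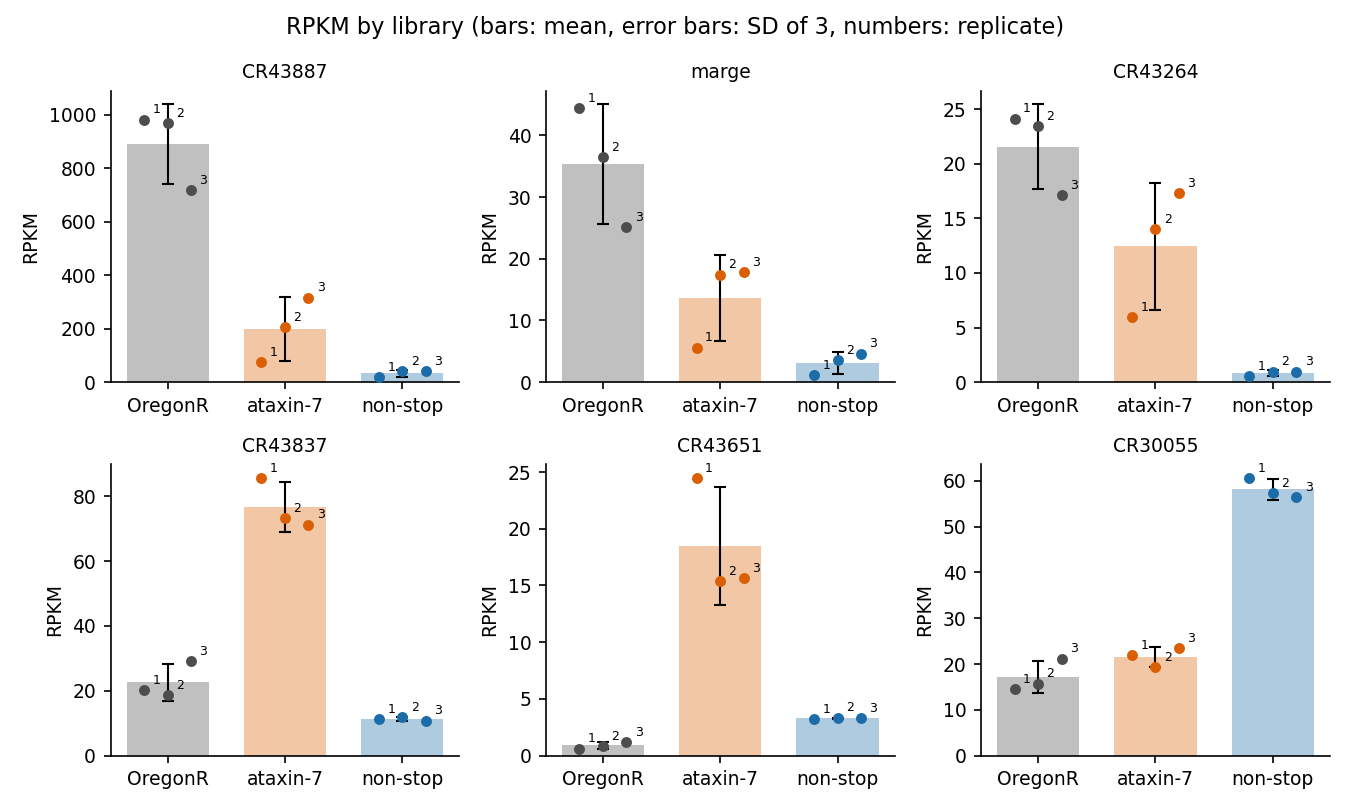
RPKM of 6 long noncoding RNA genes by library, with bars for the group mean, error bars for the SD of 3 libraries and points numbered by replicate. CR43887, marge and CR43264 have group means that are highest in OregonR and lowest in non-stop (for CR43264 the OregonR and ataxin-7 libraries overlap), CR43837 and CR43651 peak in ataxin-7, and CR30055 is highest in non-stop (60.6, 57.3 and 56.4 RPKM).

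Of the genes that rose in non-stop, CR30055 (2R:12589239-12591395, plus strand) went from 14.5, 15.7 and 21.2 RPKM to 60.6, 57.3 and 56.4, a 3.39-fold rise with non-overlapping groups (log2 fold change 1.72, SE 0.13, limma adjusted p = 2.1e-05). CR43685 went from 2.55, 3.01 and 4.61 to 12.8, 11.1 and 11.3 RPKM (log2 fold change 1.56, SE 0.18, limma adjusted p = 0.000128). CR43961 rose from 5.15, 6.85 and 6.83 to 16.1, 14.9 and 15.3 RPKM (log2 fold change 1.18, SE 0.12, limma adjusted p = 6.66e-05). CR43973 rose by a similar amount (log2 fold change 1.02, SE 0.13, limma adjusted p = 0.000255), its non-stop libraries all lying within 20.6 to 21.8 RPKM. Smaller rises were those of CR32027, CR33963 and CR43496, with log2 fold changes of 0.60, 0.47 and 0.38 (limma adjusted p of 0.00814, 0.00672 and 0.00807).

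For CR33963 and CR43496 the scale mattered. The median over all genes moved from 0.17 to 0.05 with quantile normalization and to about 0 with median-of-ratios scaling, and CR43496 did not pass under either (0.05 and 0.20) while CR33963 did not pass under the former (0.07). The genes that did not pass were CR32218, CR42549 and CR43958, with log2 fold changes of 0.02, -0.18 and 0.10, and all 3 had overlapping groups. Outside the differences left without a test, 14 genes passed, and 8 of them passed in every alternative.

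The third comparison, non-stop against ataxin-7, tests directly whether the mutants differ from each other, with the difference of experiment in it. CR43837, CR43264, CR43887, CR43651 and CR40469 were lower in non-stop, and CR30055, CR32218 and CR43961 were higher. By limma 14 of the 23 genes passed, 5 higher and 9 lower, where 32.2% of all 6968 genes tested passed (15.5% higher and 16.7% lower). Of the 15 genes at 3 RPKM or more throughout, 10 passed, 5 in each direction. The median log2 fold change was -0.22 for the 23, 0.07 for those 15 and 0.12 for all genes. The choice of members helped to fix the value of the 23.

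CR43837 had the smallest adjusted p of the 23, with 11.3 ± 0.533 against 76.7 ± 7.77 RPKM, a 6.79-fold difference (log2 fold change -2.66, SE 0.09, limma adjusted p = 0.00024). CR43264 read 5.98, 14.0 and 17.3 RPKM in ataxin-7, all above its non-stop libraries. CR40469 (X:122493-122706, plus strand, 214 bp) read 208, 159 and 187 RPKM in ataxin-7 and 58.0, 65.0 and 76.7 in non-stop, with a log2 fold change of -1.46 (SE 0.14, limma adjusted p = 0.00213). Its OregonR libraries, at 70.1, 143 and 119 RPKM, lay between and overlapped those of non-stop only.

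CR30055 was 2.70-fold higher in non-stop than in ataxin-7 (log2 fold change 1.39, SE 0.09, limma adjusted p = 0.000845). CR32218 and CR42549 were lowest in ataxin-7: CR32218 read 9.62, 9.14 and 10.2 RPKM there against 23.2, 16.1 and 18.1 in non-stop (log2 fold change 0.90, SE 0.15, limma adjusted p = 0.0103), and CR42549 read 7.52, 8.37 and 8.91 against 12.2, 12.2 and 11.3 (log2 fold change 0.48, SE 0.11, limma adjusted p = 0.0261). The calls of CR42549 and of CR33963 (log2 fold change 0.41) were lost with either other scaling. CR43961 was higher by 0.82 on the log2 scale (SE 0.10, limma adjusted p = 0.00399), and CR42491 and CR43496 stood at -0.68 and -0.79 (limma adjusted p of 0.00757 and 0.0126). CR43887 differed by -2.39 (SE 0.58, limma adjusted p = 0.0294) and passed in 8 of 15 alternatives. Its call was lost when any library of non-stop, or ataxin-7 replicate 2 or 3, was left out (limma adjusted p from 0.075 to 0.11). Of the alternatives that kept all libraries it passed in 7 of 9, and voom on the recovered reads was among the losses (limma adjusted p = 0.16). For marge the value was -1.80 (SE 0.56, limma adjusted p = 0.0579), and without ataxin-7 replicate 1 it was -2.30 (limma adjusted p = 0.000492). The gene passed in 3 of 15 alternatives. The count of 14 was 19 without ataxin-7 replicate 1, where 81.1% of all genes passed. It was 8 or 9 without ataxin-7 replicate 2 or any non-stop library, where 10.9 to 13.1% of all genes passed.

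**Figure D3:**
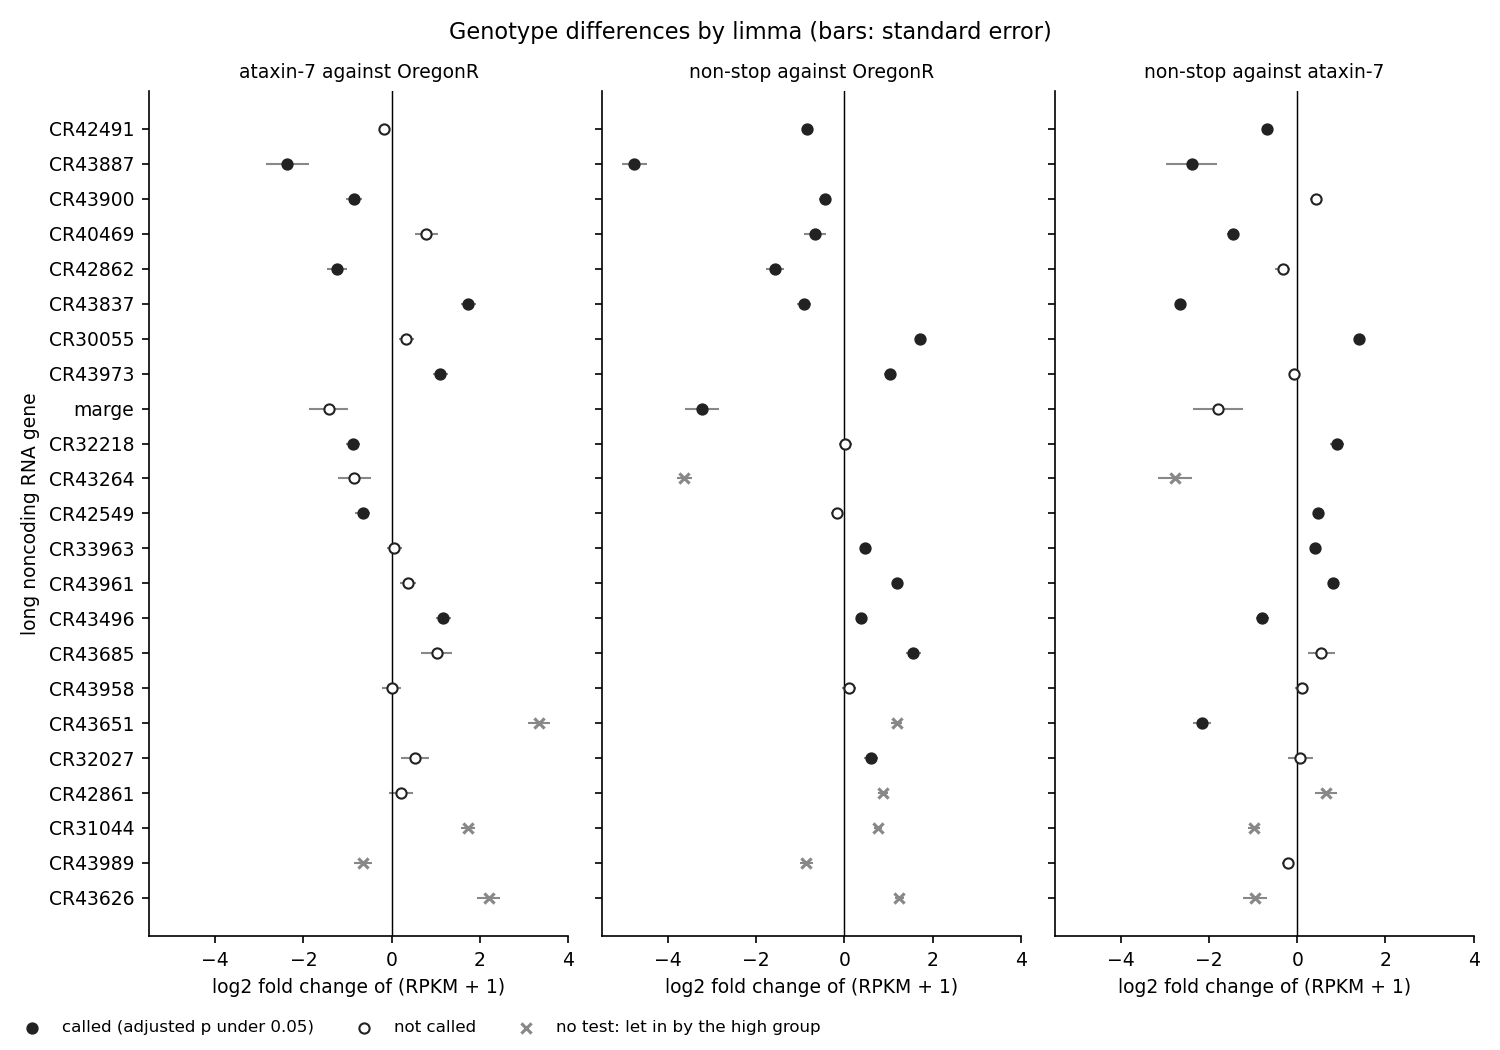
Log2 fold change of (RPKM + 1) by limma for the 23 long noncoding RNA genes in the 3 comparisons, with bars for the standard error, filled points for an adjusted p under 0.05, open points for the rest and crosses for differences left without a test. CR43837 lies at 1.74 in ataxin-7 and -0.92 in non-stop against OregonR, and CR43958 is near 0 in all 3 panels.

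The genes that contain microRNA hairpins had levels that were lowest in OregonR, highest in ataxin-7 and intermediate in non-stop. The choice of members helped to set this order: CR31044 and CR43626 met the rule through ataxin-7 only, and CR43651 through the mutants only. The shared order is therefore a description, not a result about microRNA hosts. CR43651 (2R:9552844-9553940, plus strand), which holds mir-14, a microRNA known to restrain cell death in flies, read 0.630, 0.867 and 1.22 RPKM in OregonR, 24.5, 15.4 and 15.6 in ataxin-7 and 3.24, 3.35 and 3.30 in non-stop. The mean was 20.4-fold higher in ataxin-7 and 3.64-fold higher in non-stop than in OregonR, with no 2 groups overlapping. Against ataxin-7, non-stop differed by -2.15 (SE 0.20, limma adjusted p = 0.00213).

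CR31044 (3R:29214562-29219667, plus strand), the precursor of mir-279 and mir-996, which repress the formation of certain CO2-sensing neurons, stood at 0.883 ± 0.0928, 5.27 ± 0.392 and 2.20 ± 0.223 RPKM. CR43626 (3L:3249340-3254504, plus strand), which holds mir-282, had 19, 11 and 22 reads in OregonR, 1060, 633 and 473 in ataxin-7 and 120, 162 and 122 in non-stop, or 0.106 ± 0.0409, 4.25 ± 1.81 and 1.62 ± 0.313 RPKM. In both genes no 2 groups overlapped, and these levels are a description, since the groups in which the genes were high let them in. The hairpins as separate genes had few reads, too few to compare groups. The counts of mir-279 were 0 in OregonR, 19, 8 and 7 in ataxin-7 and 1 in each non-stop library. Those of mir-996 were 3, 0 and 0 in OregonR, 0, 3 and 1 in ataxin-7 and 0, 0 and 1 in non-stop. For mir-282 they were 0, 0 and 1, then 3, 4 and 1, then 0 throughout. The only read of mir-14 was 1 in OregonR replicate 2. Mature microRNAs carry no poly(A) tail and were not measured. Ataxin-7 replicate 1 was the highest library for all 3 host genes.

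For the 6 genes that lie within a coding gene on the same strand, reads of the coding transcript can fall in the lncRNA span, and the deposited values do not separate them. The coding gene had at least as many reads as the lncRNA in all 9 libraries at each of these loci, and the plot of each lncRNA against the coding gene around it gives the RPKM. CR42491 stayed at 1.24 to 1.54 times the RPKM of RpL22, and RpL22 stood at 0.05 in ataxin-7 (limma adjusted p = 0.787) and -0.85 in non-stop (limma adjusted p = 1.61e-05) where CR42491 stood at -0.16 and -0.84. CR43900 lies in Cam, the calmodulin gene, which changed by -0.81 (limma adjusted p = 0.0106) and -0.80 (limma adjusted p = 9.08e-05) against -0.85 and -0.44 for CR43900. Its ratio to Cam was 1.22 to 1.47 in OregonR, 1.24 to 1.30 in ataxin-7 and 1.61 to 1.74 in non-stop.

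CR42549 and mura, a RING finger gene, were both low in ataxin-7 (-0.66 and -1.002), but the ratio was higher there, at 1.92 to 2.13 against 1.39 to 1.60 in OregonR. CR33963 lies in Tis11, whose protein promotes decay of AU-rich mRNAs, and Tis11 rose by 0.63 in non-stop (limma adjusted p = 0.00195) where CR33963 rose by 0.47 (SE 0.12, limma adjusted p = 0.00672). CR43958 lies in Tdg, a thymine DNA glycosylase gene, and neither passed in any comparison. CR43958 read 5.74, 7.71 and 9.16 RPKM in OregonR, 6.64, 7.77 and 7.97 in ataxin-7 and 9.09, 7.27 and 7.84 in non-stop.

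CR32218 lies in 2 coding genes on its strand, Mi-2, a nucleosome remodelling ATPase, and Su(Tpl), the transcription elongation factor ELL. Mi-2 changed by -0.54 in ataxin-7 (limma adjusted p = 0.00924) and -0.33 in non-stop (limma adjusted p = 0.000735). Su(Tpl) changed by -0.04 (limma adjusted p = 0.819) and 0.86 (limma adjusted p = 3.73e-05). CR32218 stood at -0.88 (limma adjusted p = 0.0124) and 0.02 (limma adjusted p = 0.901), so it and Mi-2 both fell in ataxin-7. How far reads of the coding genes enter its level was not tested. CR42862 shares 21.9% of its span with CG33229, and the pair differed in direction in non-stop, where CG33229 rose by 0.64 (limma adjusted p = 0.000864).

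**Figure D4:**
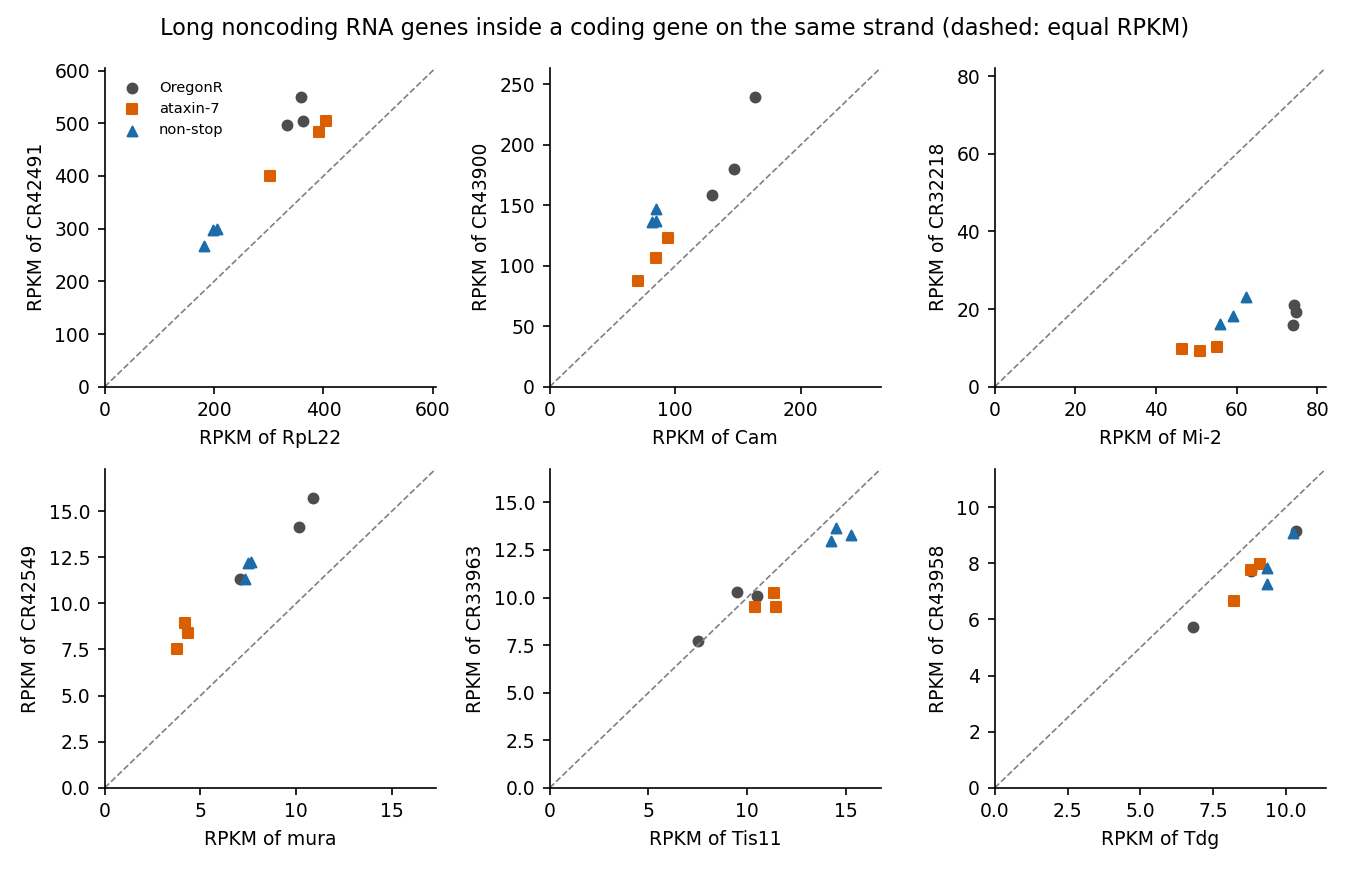
RPKM of 6 long noncoding RNA genes (vertical axis) against the RPKM of a coding gene that contains each on the same strand (horizontal axis). There is 1 point per library, and the dashed line marks equal RPKM. For CR32218, which lies in both Mi-2 and Su(Tpl), only Mi-2 is plotted. CR42491 stays at 1.24 to 1.54 times RpL22 in all 9 libraries, and CR42549 has a higher ratio to mura in ataxin-7 (1.92 to 2.13) than in OregonR (1.39 to 1.60).

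For genes on the strand opposite to a coding gene the reads were kept apart where this could be seen. CG15765, whose span contains CR43264, had 0 to 3 reads in every library in which CR43264 had 7 to 643, and IRSp53, which overlaps 14.3% of CR43989, had 3 to 11. CR30055 lies in Sin3A, the scaffold of a histone deacetylase complex. In ataxin-7 Sin3A fell by 0.66 on the log2 scale (limma adjusted p = 0.0129), where CR30055 did not pass (0.33, limma adjusted p = 0.182). In non-stop Sin3A was at -0.18 (limma adjusted p = 0.0759) while CR30055 rose. CR32027 lies opposite to Indy, a citrate transporter gene, and both rose in non-stop, CR32027 by 0.60 (SE 0.15, limma adjusted p = 0.00814) and Indy by 0.58 (limma adjusted p = 0.0034). Ataxin-7 replicate 1 held the highest CR32027 value, 10.04 RPKM, where the other libraries of that group had 5.02 and 4.60. CR43961 lies in the teneurin gene Ten-a and had more reads than CR43960, an lncRNA on the other strand, in 9 of 9 libraries.

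Of the 23 genes, 7 started within 1000 bp of a coding gene transcribed the other way. CR43837 and Inx2, a gap junction innexin gene, start 873 bp apart, and Inx2 fell in ataxin-7 (180 ± 24.7 to 72.6 ± 22.02 RPKM, log2 fold change -1.34, limma adjusted p = 0.0127), where CR43837 rose. In non-stop both fell, Inx2 to 32.5 ± 2.02 RPKM (log2 fold change -2.43, limma adjusted p = 3.37e-06). CR42861 and Grip91, a gene of the gamma-tubulin ring complex, start 245 bp apart and were both higher in non-stop: Grip91 read 1.49, 1.60 and 3.18 RPKM in OregonR and 12.0, 11.9 and 11.0 in non-stop (log2 fold change 2.07, limma adjusted p = 6.21e-05), and CR42861 read 1.68, 2.18 and 1.86 against 3.77, 4.43 and 4.70, the levels that let it in. In ataxin-7 replicate 1 both were higher than in the other ataxin-7 libraries, at 9.23 RPKM for Grip91 and 3.83 for CR42861.

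CR43685 and e(y)2b, a paralogue of the deubiquitinase module subunit gene e(y)2, start 228 bp apart. CR43685 rose in non-stop while e(y)2b fell slightly, from 5.47 ± 0.546 to 4.003 ± 0.415 RPKM (log2 fold change -0.37, limma adjusted p = 0.0149). Pur-alpha, 162 bp from CR43958, rose in ataxin-7 by 0.71 (limma adjusted p = 0.0341) and in non-stop by 0.44 (limma adjusted p = 0.0130) where CR43958 did not pass. RnpS1 (228 bp from CR42549), CG34323 (298 bp from CR43961) and Alg10 (170 bp from CR43989) were the other neighbours.

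Some lncRNAs with well-known roles were below the threshold. Of 10 listed, 6 were in the table and none was among the 23. Hsromega, the heat-shock RNA that organizes nuclear speckles, read 3.57, 3.59 and 2.48 RPKM in OregonR, 0.351, 1.02 and 0.887 in ataxin-7 and 0.0864, 0.290 and 0.321 in non-stop. The levels of bxd (1.51 to 2.52 RPKM) and noe (2.01 to 3.26) were also highest in OregonR, with all mutant libraries under 1 RPKM. For sphinx the OregonR libraries were the lowest (0.238 to 0.377 RPKM, against 0.919 to 1.16 in non-stop).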

How the data were processed

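The authors deposited 1 table of RPKM for 15682 gene identifiers in 9 libraries. The submitters' processing notes list CASAVA 1.8.2, TopHat2 2.0.13, edgeR 3.14.0 and build dm3, without roles, and the annotation and counting rule are not given in the sources used here. Each RPKM was a whole number of reads over a gene length and a rescaled library size for 99.986% of the 13809 genes above 0 (relative tolerance 3e-13), which gave reads and depth. Symbols came from gene identifiers (15002 matched), and positions are those of BDGP6 (Ensembl), not dm3. Intervals and the limit of 3 reads cover counting error only.

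Genes with at least 1 RPKM in at least 3 samples of a fit were tested with limma 3.58.1 (R 4.3.3, lmFit and eBayes with trend, two-sided) on log2(RPKM + 1), which understates changes of low genes. Only the 3 and 3 libraries compared entered, with no covariate, and p-values were BH-adjusted over all genes tested, with calls under 0.05. The fit was tested on simulated data. Python 3.11.15, numpy 2.4.6, pandas 2.3.3 and matplotlib 3.10.9 were used. The members, the gene lists and the tests were chosen with earlier results of these data known. Named were the 10 genes with the highest mean, the 6 called genes with the largest fold change in each direction and comparison without overlap, genes with a given name, and the 3 on either side of the threshold. CR32027 and CR43958 fall outside this rule and were added to account for all 23. Alternatives were other pseudocounts, filters and scalings, voom on the recovered reads, 1 fit of all libraries, a replicate block and leaving out each library.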

Additional observations from a re-analysis of the deposited data

Results flagged for a closer look

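CR43837 was the single gene of the 23 that passed against OregonR in opposite directions in the 2 mutants, higher in ataxin-7 and lower in non-stop. The direct difference, non-stop against ataxin-7, was -2.66 on the log2 scale (SE 0.09, limma adjusted p = 0.00024), with the 3 non-stop libraries at 10.8 to 11.9 RPKM and the 3 ataxin-7 libraries at 71.2 to 85.6. It passed in each of the 15 alternatives of all 3 comparisons. The non-stop libraries came from another experiment, and its part cannot be told apart from that of genotype.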

How the results depend on the processing

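After centring on group means, same-numbered libraries of ataxin-7 and OregonR had correlations of 0.02, 0.06 and -0.06. Those of non-stop were -0.24, 0.11 and -0.11 with OregonR and 0.37, -0.12 and 0.44 with ataxin-7. Differently numbered libraries of the mutants ranged from -0.47 to 0.48. These values, from 3 libraries per group, cannot show whether samples were paired, so fits with a replicate block are given too. With a replicate block 6 of the 23 genes passed in ataxin-7 against OregonR in place of 12 (471 of all genes in place of 2285). There were 20 in non-stop against OregonR (5895 of all genes) and 11 in non-stop against ataxin-7 (1383 of all genes). Leaving out 1 library gave 5 to 12, 16 to 19 and 8 to 19 genes in the 3 comparisons. Of all genes, 201 to 3541, 5244 to 5982 and 749 to 5550 passed. Without a library of the group that carries them, CR31044, CR43626 or CR43264 fell below the filter and have no value. In the last comparison quantile normalization and median-of-ratios scaling each left 3 higher and 9 lower, where 37% and 27.6% of all genes passed.

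Of the values for genes that passed, 583 kept their call, 89 lost it and 0 changed sign. This tally includes the differences left without a test. Outside them 8, 14 and 11 genes passed in the 3 comparisons, and 1, 8 and 5 of those passed in every alternative. Signs changed only for genes that had not passed. With quantile normalization CR42491 in ataxin-7 went from -0.16 to 0.30 (limma adjusted p = 0.00827), CR33963 there to -0.11, CR43958 to -0.11, -0.22 and -0.11 in the 3 comparisons, CR32218 in non-stop to -0.32 and CR32027 between the mutants to -0.20. With median-of-ratios scaling CR43958 went to -0.055, -0.077 and -0.025, CR32218 in non-stop to -0.17 and CR32027 between the mutants to -0.044. Leaving out 1 library gave -0.058 to 0.13 for CR33963, -0.16 to 0.14 for CR43958 and -0.046 to 0.38 for CR42861 in ataxin-7, -0.12 to 0.13 for CR32218 and -0.058 to 0.24 for CR43958 in non-stop, and -0.11 to 0.38 for CR32027 between the mutants. The causes were not tested.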
